A study of Mus musculus with 16 samples.

Results

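Type I interferon-stimulated antiviral genes are described here in cultured dendritic cells. The marrow they came from was that of NZM2410 mice, which develop lupus spontaneously. The set has 40 named genes out of 24001 gene rows in the expression table. They were chosen by name as known interferon-stimulated genes. All 40 were found, and all 40 passed the filter on low values. Ifit3b is listed in the table under its older symbol I830012O16Rik and is called by that symbol below. Culture ran to day 7 with 20 ng/ml of GM-CSF and, at 10 ng/ml, IL-4, and cells received vehicle, or loxoribine and CpG (1 μg/ml), for 24 h. Loxoribine is an agonist of TLR7 and CpG DNA of TLR9, receptors that sense RNA and DNA in endosomes. For loxoribine the protocol states 200 μmol/ml, and nothing in the files tests that unit. RNA was sequenced from 16 libraries, 2 in each of 8 groups. The labels speak of triplicates. No label ties the 2 libraries of a group to separate animals or cultures. The p-values therefore speak only to the spread between libraries, which may be technical.

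The groups are 4 arms with and without agonist, and the arms differ in the gene for estrogen receptor α, Esr1. By the source labels, WT mice had the intact receptor and KO mice the allele called ERKO Shrt, and neither arm was operated. ERKO OVX mice (ERKO Shrt OVX) and Ex3a OVX mice (ERKO NULL OVX) had been ovariectomized at 4 to 8 weeks of age and then carried a 0.25 mg estradiol pellet made to release for 90 days. Among these groups no ovariectomized mouse had the intact receptor, and none had surgery with an empty pellet. The series title speaks of a conditional knockout in CD11c+ cells, and the labels name no Cre driver. The genotype labels contradict the source labels. They give Esr1(tm4.2Ksk), described as lacking receptor activity, for KO vehicle and ERKO OVX vehicle. They give Esr1(tm1Ksk), described as a truncated receptor with residual responsiveness, for the agonist groups of those arms and for both Ex3a OVX groups. The arms are called here by their source labels. If the genotype labels were right, the agonist response in KO and in ERKO OVX would compare different alleles, and Ex3a OVX would carry the short allele. The agonist comparison of Ex3a OVX with ERKO OVX would then hold the allele constant. Under both readings ERKO OVX and KO share an allele within each treatment. Age at harvest is not in the labels.

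Type I interferons are secreted when cells sense foreign nucleic acid, and they bind a receptor made of IFNAR1 and IFNAR2 on the same or neighbouring cells. The kinases JAK1 and TYK2 on the receptor then pass the signal to a transcription factor complex that holds IRF9 and binds the interferon-stimulated response element (ISRE) in front of target genes. The products block viral entry, RNA, translation and release, and some of them, such as USP18, damp the signal. Raised levels of these transcripts in blood cells are a known feature of lupus, in which dendritic cells take up nucleic acid complexes that reach TLR7 and TLR9.

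RefSeq promoter windows on GRCm38.p6, the patch release of the mm10 assembly, cover 250 bases before to 50 bases after a gene's start. Windows were found for 31 of the 40 genes. The core of the ISRE, GAAA, any 2 bases and GAAA again on either strand, was present in windows of 15 of these 31 genes (48.4%) and of 1079 of all 27025 genes with a window (3.99%). The GAS motif (gamma-activated sequence), TTC, any 3 bases and GAA, was present in 7 of 31 genes (22.6%) against 9.55% of all genes. A kappa B motif, GGGA, any base and TTTCC, on either strand, was in 0 of 31 against 0.466%. The ISRE core and GAS stood in 1 window in 4 genes (Oas1a, Eif2ak2, Bst2 and Ifitm3), and shared bases in Bst2 and Ifitm3. In 13 genes a match of the ISRE core lay wholly before the start, and these matches began 12 to 188 bases before it.

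Stretches around 1 such match are shown for 10 of these genes, chosen for the range of their differences between arms and to show which neighbours share a sequence. Each is written 5′ to 3′ on the gene's own strand, in lower case, with 1 match of the ISRE core, or of its reverse complement, in capitals. Further matches within the stretches of Isg15, Ifit1, Oas1a, Oas1g and Bst2 are left in lower case. On the plus strand the stretches lie at chr19:34640784-34640833 (Ifit1), chr19:34583387-34583436 (Ifit3), chr19:34607783-34607832 (I830012O16Rik) and chr8:61928014-61928063 (Ddx60). On the minus strand they lie at chr4:156200861-156200910 (Isg15), chr5:120907526-120907559 (Oas1a), chr5:120887614-120887645 (Oas1g), chr5:120777705-120777754 (Oas3), chr12:26456543-26456592 (Rsad2) and chr8:71537567-71537616 (Bst2).
Isg15: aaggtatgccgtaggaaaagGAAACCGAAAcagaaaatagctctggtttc
Ifit1: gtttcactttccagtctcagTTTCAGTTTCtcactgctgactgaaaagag
Ifit3: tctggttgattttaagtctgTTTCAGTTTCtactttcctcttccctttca
I830012O16Rik: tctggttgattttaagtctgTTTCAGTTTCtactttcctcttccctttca
Oas1a: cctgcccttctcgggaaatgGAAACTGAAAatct
Oas1g: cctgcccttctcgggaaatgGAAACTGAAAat
Oas3: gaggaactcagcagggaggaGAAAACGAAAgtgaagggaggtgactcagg
Rsad2: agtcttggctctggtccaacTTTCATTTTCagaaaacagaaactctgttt
Ddx60: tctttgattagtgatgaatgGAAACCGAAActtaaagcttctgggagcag
Bst2: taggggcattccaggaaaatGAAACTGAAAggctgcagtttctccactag

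The stretches of Ifit3 and I830012O16Rik are identical, as are those of Oas1a and Oas1g over their common length. The transcripts are alike too. Of the 50-base words of the longest GENCODE transcript, 57.6% of Oas1a's were also in Oas1g and 51.2% of Ifit3's in Ifit3b, the gene listed as I830012O16Rik. Shares in other genes were 30.2% for Ifi204, 23.8% for Herc6 and 15.4% for Slfn8. Reads of these pairs may have been split between copies by the authors' counting, so the values of these 7 genes are uncertain. The 7 neighbourhoods found with gaps under 200 kb hold 19 of the 40 genes. They include Ifit2, Ifit3, I830012O16Rik and Ifit1 within 99.5 kb of chromosome 19, Oas2, Oas3, Oas1g and Oas1a within 177.2 kb of chromosome 5, Parp14, Dtx3l and Parp9 within 140.7 kb of chromosome 16, and Rsad2 beside Cmpk2 on chromosome 12. RefSeq annotates Mx1 and Mx2 as transcribed pseudogenes in its C57BL/6J reference.

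Levels are given in FPKM, fragments scaled by transcript length and by the mapped total of the library, and for 2 libraries of a group as replicate 1 and replicate 2. FPKM divides by length, so levels can be set side by side between genes. Sums of FPKM were at most 522287 in unoperated and at least 612322 in ovariectomized libraries, and estimated depths were 36.8 to 43.1 M and 17.5 to 23.6 M fragments (M for mega). The estimate is rough, because 61.3 to 67.4% of low values lay within 0.1 of a whole fragment. The paired libraries of each ovariectomized group differed by little more than sampling noise (median variance at most 1.63 times it, against 2.50 to 5.36 in the unoperated groups). They were averaged and counted as 1 sample, and tests of these groups assume that they vary like the unoperated ones. Per the labels, each unoperated pair holds 1 library with at least 1 corrupted read file. The errors of every test rest on the spread within these pairs, and the part of those files in it was not tested. Esr1 itself was lowest in Ex3a OVX libraries (0.283 to 0.364 FPKM), followed by WT (0.684 to 1.38), with ERKO OVX (0.982 to 1.16) overlapping WT and KO on top (1.77 to 2.57). A value summed over a gene does not see which exon is missing, so it checks no allele. Of 10 dendritic cell markers, Itgax (86.0 to 155 FPKM), H2-Aa and Cd74 were present in all libraries, Flt3 (1.12 to 4.01) and Kmo (0.453 to 1.79) were low, and Cd209a was at or near 0. Zbtb46, a factor of conventional dendritic cells, measured 13.1 to 27.8 in unoperated and 2.65 to 4.69 in ovariectomized libraries, and Ccr7 1120.1 to 2205 and 205 to 508. Other markers of the list went the other way. In unoperated libraries H2-Aa measured 610 to 856, H2-Ab1 208 to 298 and Cd74 3614 to 4204. In ovariectomized libraries they measured 1865 to 2873, 1192 to 1947 and 6459 to 8403. Every change below is on the log2(FPKM + 1) scale with its standard error (SE), and was called where the limma p-value, adjusted over all genes tested by Benjamini and Hochberg's method, was under 0.05.

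Levels stood in steps, lowest in the unoperated arms, higher in ERKO OVX and highest in Ex3a OVX. Summed over the 40 genes, the level was 3315 to 3340 FPKM in WT vehicle, 3344 to 3363 in KO vehicle, 7258 to 7314 in ERKO OVX vehicle and 12445 to 12487 in Ex3a OVX vehicle. With agonist the same sums were 3202 to 3266, 3247 to 3287, 6767 to 6840 and 12610 to 12686. In bulk RNA, fewer cells of a type and less RNA per cell cannot be told apart. The order of the arms was the same in both treatments. WT and KO sums differed by less than the agonist moved either, while both ovariectomized arms stood apart from them and from each other by more. Sums weigh the most abundant genes most, here Ifitm3, Bst2, Lgals3bp and Ly6e. Gene by gene, the median log2 change of KO against WT was 0.16 under vehicle and 0.24 with agonist. The median change with agonist was -0.065 in WT and 0.016 in KO, with genes moving in both directions. Ex3a OVX had the highest group mean for 36 of 40 genes, 25 of them with agonist and 11 with vehicle. The other 4 were Oas2 (highest in WT vehicle), Slfn8 (KO vehicle), and Eif2ak2 and Mx1 (KO agonist).

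**Figure D1:**
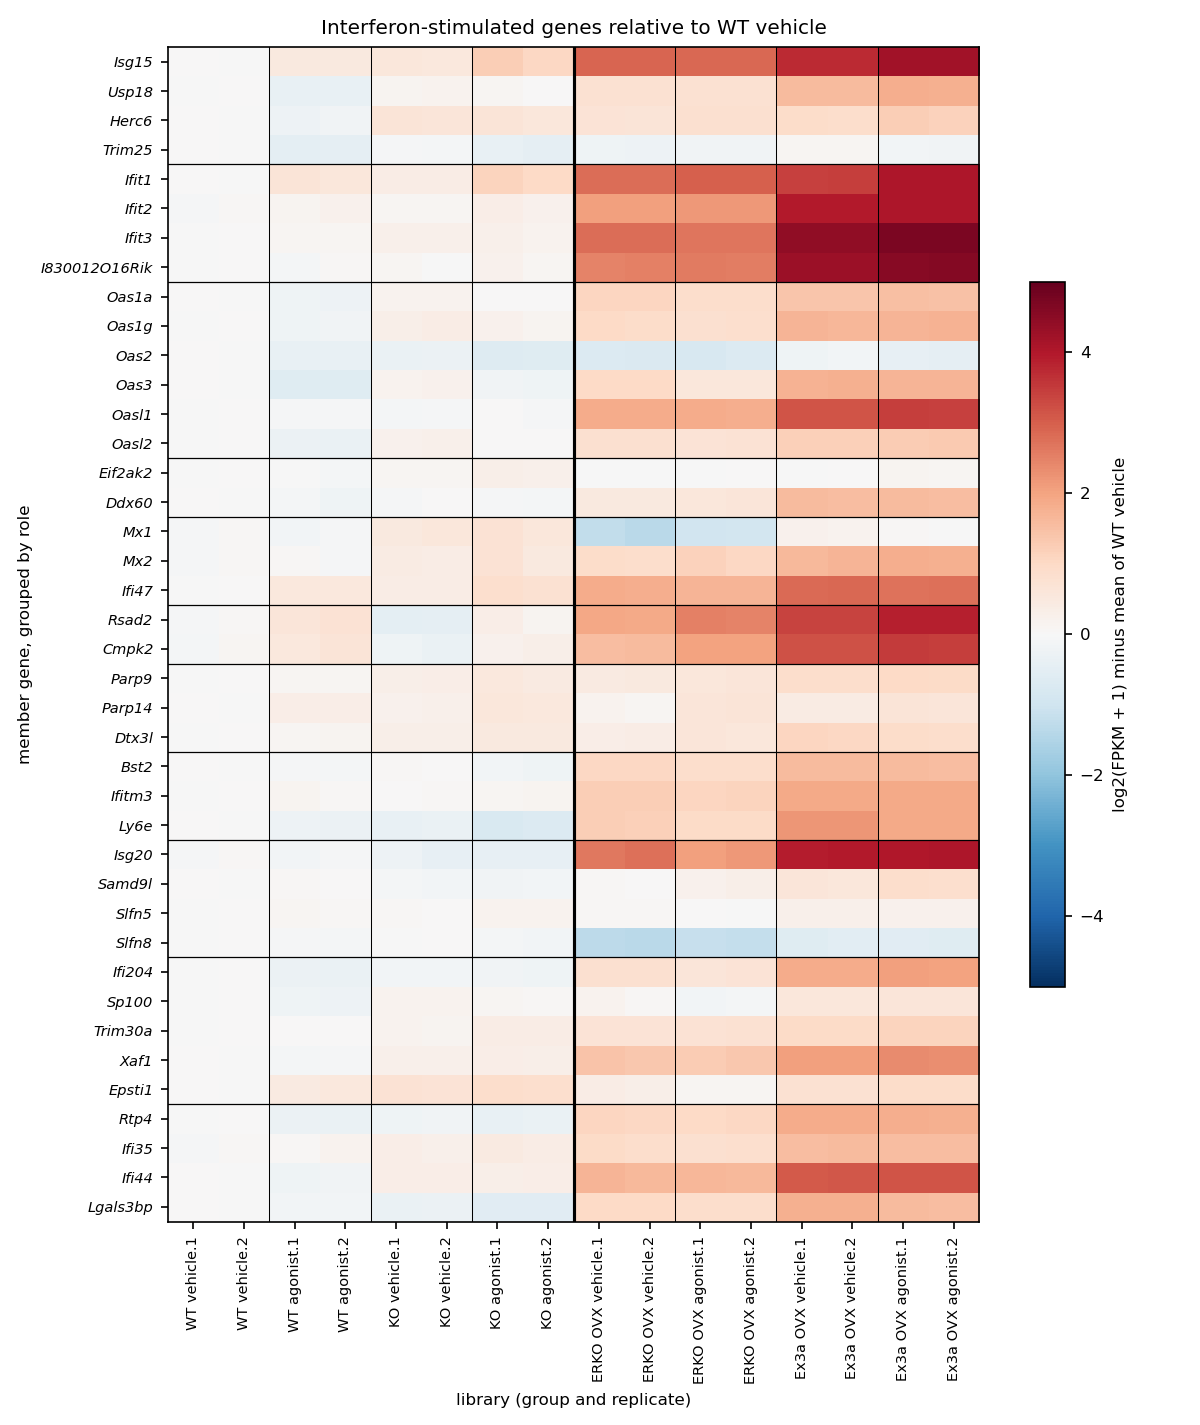
Each cell is the log2(FPKM + 1) of 1 gene (rows, grouped by role) in 1 of 16 libraries (columns) minus the mean of the 2 WT vehicle libraries, red higher and blue lower. The 8 ovariectomized libraries, right of the thick line, are red for most genes and darkest in Ex3a OVX; Mx1, Slfn8 and Oas2 are blue in ERKO OVX.

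All 8 ovariectomized libraries lay above all 8 unoperated libraries for 28 of 40 genes, against 21.3% of all genes tested. The exceptions were Trim25, Oas2, Eif2ak2, Mx1, Parp9, Parp14, Dtx3l, Samd9l, Slfn5, Slfn8, Sp100 and Epsti1. Relative to WT vehicle, the median ratio of group means over the genes was 1.12 in KO, 1.996 in ERKO OVX and 3.37 in Ex3a OVX, all with vehicle. Against the same base, the agonist groups stood at 0.954 in WT, 1.15 in KO, 1.80 in ERKO OVX and 3.33 in Ex3a OVX. I830012O16Rik had the highest ratio in Ex3a OVX agonist, 36.1, and Slfn8 the lowest, 0.654. In the unoperated groups the median SD over the genes was 1.35 to 2.93% of the mean (n = 2), and the ovariectomized groups, each counted as 1 sample, have no SD. Surgery and pellet were given to both ovariectomized arms and to no other, so they cannot be told apart from the depth, the sums of FPKM or anything else that separates the 2 sets of libraries.

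The comparison of Ex3a OVX with ERKO OVX sets 2 receptor alleles side by side in mice with the same surgery and pellet. Of 40 genes, 39 were called higher in Ex3a OVX under vehicle and 0 lower, against 55.2% of all genes called in either direction (29.2% higher, 26.0% lower). With agonist 37 were called higher and 0 lower, against 62.7% (32.1% higher, 30.6% lower). The exceptions were Eif2ak2 in both treatments and Trim25 and Parp14 with agonist. The median change was 0.76 under vehicle and 0.81 with agonist, beside medians over all genes of 0.017 and 0.0047, and the ratio of mean FPKM passed 2 for 12 and 17 genes. All 4 Ex3a OVX libraries lay above all 4 ERKO OVX libraries for 38 genes, against 24.3% of all genes. With both arms as averaged pairs, these errors rest on the spread of the unoperated libraries.

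The IFIT family, whose proteins bind viral RNA and hinder its translation, held the largest differences in both treatments. Ifit3 measured 80.8 and 80.2 FPKM in ERKO OVX vehicle and 252 and 252 in Ex3a OVX vehicle, 3.13-fold more (log2 change 1.63, SE 0.046, adjusted p = 3.59e-09 by limma). With agonist it measured 75.1 and 73.5 against 305 and 307, 4.12-fold more (log2 change 2.03, SE 0.046, adjusted p = 9.99e-10 by limma). Neither pair overlapped, and the unoperated libraries lay far below both, at 10.7 to 13.1 FPKM. Ifit2 measured 49.2 and 49.4 in ERKO OVX vehicle against 188 and 192 in Ex3a OVX vehicle (log2 change 1.93, SE 0.063, adjusted p = 7.9e-09 by limma). I830012O16Rik, which shares sequence with Ifit3, measured 15.2 and 15.5 against 55.0 and 55.1 (log2 change 1.77, SE 0.089, adjusted p = 1.43e-07 by limma). Ifit1 differed least in the family under vehicle, at 88.2 and 87.7 against 137 and 138 (log2 change 0.64, SE 0.060, adjusted p = 1.18e-05 by limma). All 4 IFIT genes were called higher in both treatments.

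**Figure D2:**
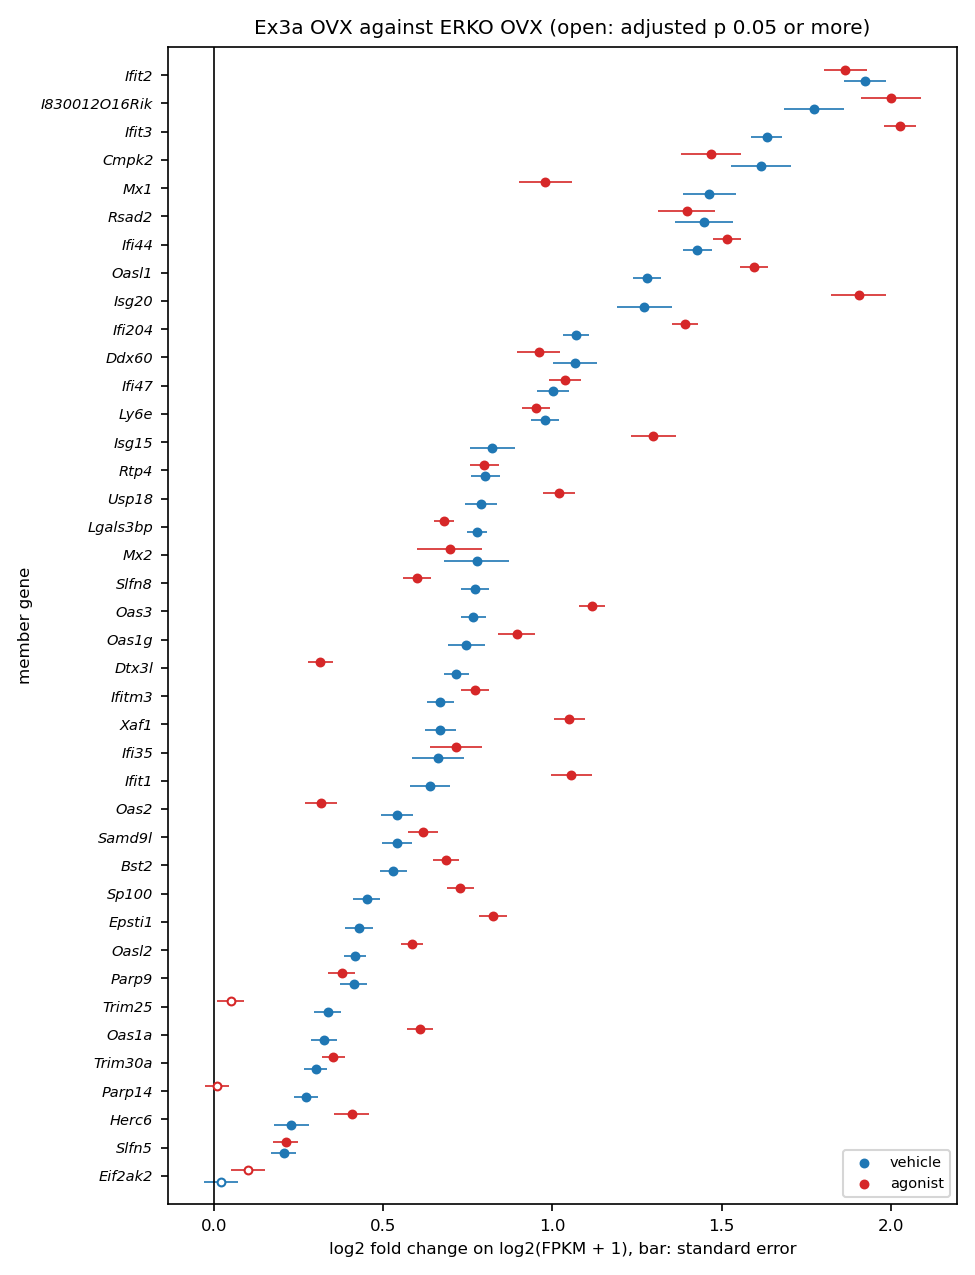
Points are the log2 change of Ex3a OVX against ERKO OVX for each gene under vehicle (blue) and agonist (red), bars are SE, and open points have an adjusted p of 0.05 or more. Ifit2, Ifit3 and I830012O16Rik lie near the top, and only Eif2ak2, Trim25 and Parp14 have open points.

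Isg15 encodes a ubiquitin-like protein that is joined to other proteins, with Herc6 its main ligase in the mouse and Usp18 the protease that removes it. Isg15 measured 509 and 499.5 FPKM in ERKO OVX vehicle and 893 and 891 in Ex3a OVX vehicle (log2 change 0.82, SE 0.066, adjusted p = 4.76e-06 by limma). With agonist it measured 496 and 496 against 1221 and 1221 (log2 change 1.30, SE 0.066, adjusted p = 1.9e-07 by limma). All 4 Ex3a OVX libraries lay above all 4 of ERKO OVX. Usp18 was higher by 0.79 under vehicle and 1.02 with agonist, and Herc6 by 0.23 and 0.41. Trim25, a ubiquitin ligase that acts on the RNA sensor RIG-I, was higher by 0.33 under vehicle, while its agonist value of 0.049 (SE 0.040, adjusted p = 0.32 by limma) did not pass.

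All 6 genes of the OAS family, which make or resemble enzymes that make oligoadenylates activating RNase L, were called higher in both treatments. Oasl1, which lacks that activity and holds back translation of IRF7, led them at 118 and 117 FPKM in ERKO OVX agonist against 359 and 356 in Ex3a OVX agonist (log2 change 1.60, SE 0.040, adjusted p = 2e-09 by limma). Oas3 measured 69.9 and 69.9 against 153 and 152 there (log2 change 1.12, SE 0.038, adjusted p = 1.09e-08 by limma). Oasl2, the OAS gene with the highest mean level, measured 147 and 149 against 222 and 224 (log2 change 0.58, SE 0.033, adjusted p = 3.25e-07 by limma). The groups did not overlap for any of these. The smallest changes in the family were 0.32 for Oas1a under vehicle and 0.31 for Oas2 with agonist.

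Rsad2 (viperin, which makes a chain-terminating nucleotide) and its neighbour Cmpk2, a mitochondrial nucleotide kinase, were both higher. Rsad2 measured 75.2 and 74.3 FPKM in ERKO OVX vehicle and 207 and 205 in Ex3a OVX vehicle (log2 change 1.45, SE 0.085, adjusted p = 5.68e-07 by limma). Cmpk2 measured 27.9 and 28.8 against 88.4 and 89.7 (log2 change 1.62, SE 0.090, adjusted p = 3.36e-07 by limma). With agonist Rsad2 measured 113 and 111 against 296 and 297, and Cmpk2 was higher by 1.47. Isg20, an exonuclease that degrades RNA, measured 21.2 and 23.4 in ERKO OVX agonist and 84.8 and 87.6 in Ex3a OVX agonist, 3.87-fold more (log2 change 1.91, SE 0.081, adjusted p = 4.84e-08 by limma). Unoperated libraries held only 2.99 to 4.57 FPKM of it. Samd9l, a restriction factor of poxviruses, and the Schlafen genes Slfn5 and Slfn8 were higher by 0.54, 0.20 and 0.77 under vehicle.

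Mx1 and Mx2 encode dynamin-like GTPases that trap viral nucleocapsids, and Ifi47 an immunity-related GTPase. Mx1 measured 7.15 and 6.34 FPKM in ERKO OVX vehicle and 20.7 and 20.1 in Ex3a OVX vehicle (log2 change 1.46, SE 0.078, adjusted p = 2.16e-07 by limma). With agonist it measured 8.65 and 8.88 against 18.8 and 17.7 (log2 change 0.98, SE 0.078, adjusted p = 3.41e-06 by limma). WT libraries spanned 16.1 to 18.5, overlapping the Ex3a OVX range, and ERKO OVX was the low arm. Ifi47 measured 98.6 and 96.8 against 195 and 198 under vehicle (log2 change 1.00, SE 0.047, adjusted p = 8.55e-08 by limma). Mx2 was higher by 0.78 under vehicle.

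Membrane factors were among the most abundant of the genes. Ifitm3, which stops viruses from fusing in endosomes, measured 1900.3 and 1886 FPKM in ERKO OVX vehicle and 2997 and 3023 in Ex3a OVX vehicle (log2 change 0.67, SE 0.041, adjusted p = 5.91e-07 by limma). Ly6e, a lipid-anchored surface protein, measured 932 and 931 against 1837 and 1835 (log2 change 0.98, SE 0.041, adjusted p = 4.47e-08 by limma). Bst2 (tetherin, which holds budding virus at the membrane) measured 994 and 995 against 1438 and 1433 (log2 change 0.53, SE 0.040, adjusted p = 2.29e-06 by limma). These 3 were called higher with agonist as well. Lgals3bp, a secreted glycoprotein of similar abundance, measured 947 and 941 against 1615 and 1624 (log2 change 0.78, SE 0.030, adjusted p = 2.3e-08 by limma). With agonist Ifi44 measured 37.5 and 36.0 against 107 and 107 (log2 change 1.52, SE 0.042, adjusted p = 3.43e-09 by limma), and Rtp4 and Ifi35 were higher by 0.80 and 0.72.

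Nuclear and signalling genes and the PARP genes were also higher, with Parp14 and Eif2ak2 at the low end. Ifi204, a sensor of DNA, was higher by 1.07 under vehicle and 1.39 with agonist, Xaf1, an antagonist of the apoptosis inhibitor XIAP, by 0.67 and 1.05, and Epsti1 by 0.43 and 0.82. Sp100, a nuclear body protein, and Trim30a, a regulator of TLR signalling, were higher by 0.45 and 0.30 under vehicle. Parp9 and Dtx3l, which form a complex that modifies histones and viral proteins, were higher by 0.41 and 0.72 there. Parp14, a mono-ADP-ribosyltransferase, measured 72.6 and 73.0 FPKM in ERKO OVX agonist and 73.8 and 72.5 in Ex3a OVX agonist, and these overlapped (log2 change 0.0078, SE 0.036, adjusted p = 0.86 by limma). Eif2ak2 (PKR, the kinase that halts translation on double-stranded RNA) measured 25.4 and 25.5 against 25.5 and 26.0 under vehicle (log2 change 0.020, SE 0.051, adjusted p = 0.77 by limma). Ddx60, a helicase helping RNA sensing, measured 7.07 and 6.97 against 16.1 and 15.5 (log2 change 1.07, SE 0.064, adjusted p = 5.02e-07 by limma). An ISRE core in the promoter window came with changes in much the same range as those of genes without it. The median under vehicle was 0.74 over the 15 genes with one and 0.69 over the 16 without, with ranges of 0.020 to 1.77 and 0.23 to 1.93. Genes without a window were left out, and an inexact core or one outside the window counted as none. The split therefore does not test whether the element acts.

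Of 29 genes listed for the interferon system (ligands, receptor, kinases, factors and TLR components), 22 passed the filter. In Ex3a OVX against ERKO OVX, 17 of the 22 were called higher and 2 lower under vehicle, and 17 and 3 with agonist. Their median changes were 0.62 and 0.60. Of all genes, 29.2% were called higher and 26.0% lower under vehicle, and 32.1% and 30.6% with agonist. The ligand gene Ifnb1 was low throughout, at 0.330 and 0.128 FPKM in ERKO OVX vehicle and 2.52 and 2.85 in Ex3a OVX vehicle (log2 change 1.58, SE 0.10, adjusted p = 6.21e-07 by limma). With agonist it measured 1.01 and 0.989 against 3.70 and 4.94 (log2 change 1.41, SE 0.10, adjusted p = 1.27e-06 by limma). The 8 unoperated libraries held 0.0366 to 0.365 FPKM of Ifnb1, and no listed Ifna gene passed the filter in any arm. Ifnb1 itself passed only through the Ex3a OVX libraries, since just 1 other library, of ERKO OVX agonist, reached 1 FPKM. Its higher calls, and its place among the 17, were thus favoured beforehand. Irf7, the factor that drives interferon genes downstream of TLR7 and TLR9, measured 347 and 345 in ERKO OVX agonist and 769 and 772 in Ex3a OVX agonist (log2 change 1.15, SE 0.030, adjusted p = 2.32e-09 by limma). The receptor gene Ifnar2 was higher by 0.56 under vehicle and Ifnar1 by 0.46, while Jak1 was lower, at -0.23. Tlr7 and Tlr9, the targets of the agonists, were higher under vehicle by 0.62 and 1.52, and Socs1, an inhibitor of the pathway, by 0.91. With agonist Ifnar1 measured 27.3 and 27.3 in ERKO OVX against 28.0 and 27.9 in Ex3a OVX. Jak1 then measured 63.8 and 65.9 against 65.1 and 63.4, and Ifnar2 143 and 139 against 212 and 212.

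Markers of other cells differed between the same arms, in both directions. Of 9 macrophage markers tested, 8 were called higher in Ex3a OVX in both treatments and 0 lower, and their summed level was 1785 to 1790 FPKM in ERKO OVX vehicle and 3003 to 3004 in Ex3a OVX vehicle (1773 to 1774 and 3324 to 3369 with agonist). C1qa alone measured 2.66 and 2.20 against 115 and 117. Of 6 monocyte markers 5 were called higher and 1 lower, with sums of 2759 to 2777 and 3704 to 3749, and Ly6c2 gave nearly all of it. Of 8 T and NK cell markers listed 3 were tested and all 3 were higher, and the 8 had sums of 7.81 to 8.96 and 23.0 to 26.5. Cd3g passed the filter only through Ex3a OVX libraries, which favoured its call. Among the untested ones, vehicle means were lower in Ex3a OVX for Cd8b1 and Klrb1c and higher for Cd3e, Cd4 and Ncr1. Neutrophil and granulocyte precursor markers went mostly the other way, with 4 of 9 called lower and 2 higher under vehicle and sums of 2384 to 2389 and 899 to 904, as did those of mast cells and basophils, with 4 of 5 lower and 0 higher and sums of 74.3 to 74.6 and 25.6 to 27.2. The plasmacytoid dendritic cell list, whose cells are known for strong interferon output, summed to 22.8 to 23.2 and 36.2 to 36.6. Of its 4 genes tested 1 was called higher under vehicle. Its defining marker Siglech was at 0 in all vehicle libraries, and Lair1 made up most of the sum. The dendritic cell list had 4 of 9 called higher and 4 lower under vehicle. The part of these cells in the differences was not tested.

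The agonist response differed between the ovariectomized arms for 18 of 40 genes, 13 with a higher value in Ex3a OVX and 5 with a lower one, against 31.3% of all genes (16.6% higher, 14.7% lower). Isg20 differed most. It measured 32.2 and 34.7 FPKM in ERKO OVX vehicle and 21.2 and 23.4 with agonist, and 81.5 and 82.9 and then 84.8 and 87.6 in Ex3a OVX (difference of the responses 0.63, SE 0.12, adjusted p = 0.0033 by limma). Mx1 stood at the other end, rising in ERKO OVX with agonist and not passing in Ex3a OVX (difference -0.49, SE 0.11, adjusted p = 0.0094 by limma). The other genes with a higher response in Ex3a OVX were Isg15 (0.48), Ifit1 (0.42), Epsti1 (0.40), Ifit3 (0.39), Xaf1 (0.38), Oas3 (0.35), Oasl1 (0.32), Ifi204 (0.32), Oas1a (0.28), Sp100 (0.28), Usp18 (0.23) and Oasl2 (0.17). The other lower ones were Dtx3l (-0.40), Trim25 (-0.29), Parp14 (-0.26) and Oas2 (-0.23). By the genotype labels, the ERKO OVX response compares 2 alleles.

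The plot of single libraries shows how differently 6 of the genes were spread over the arms.

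**Figure D3:**
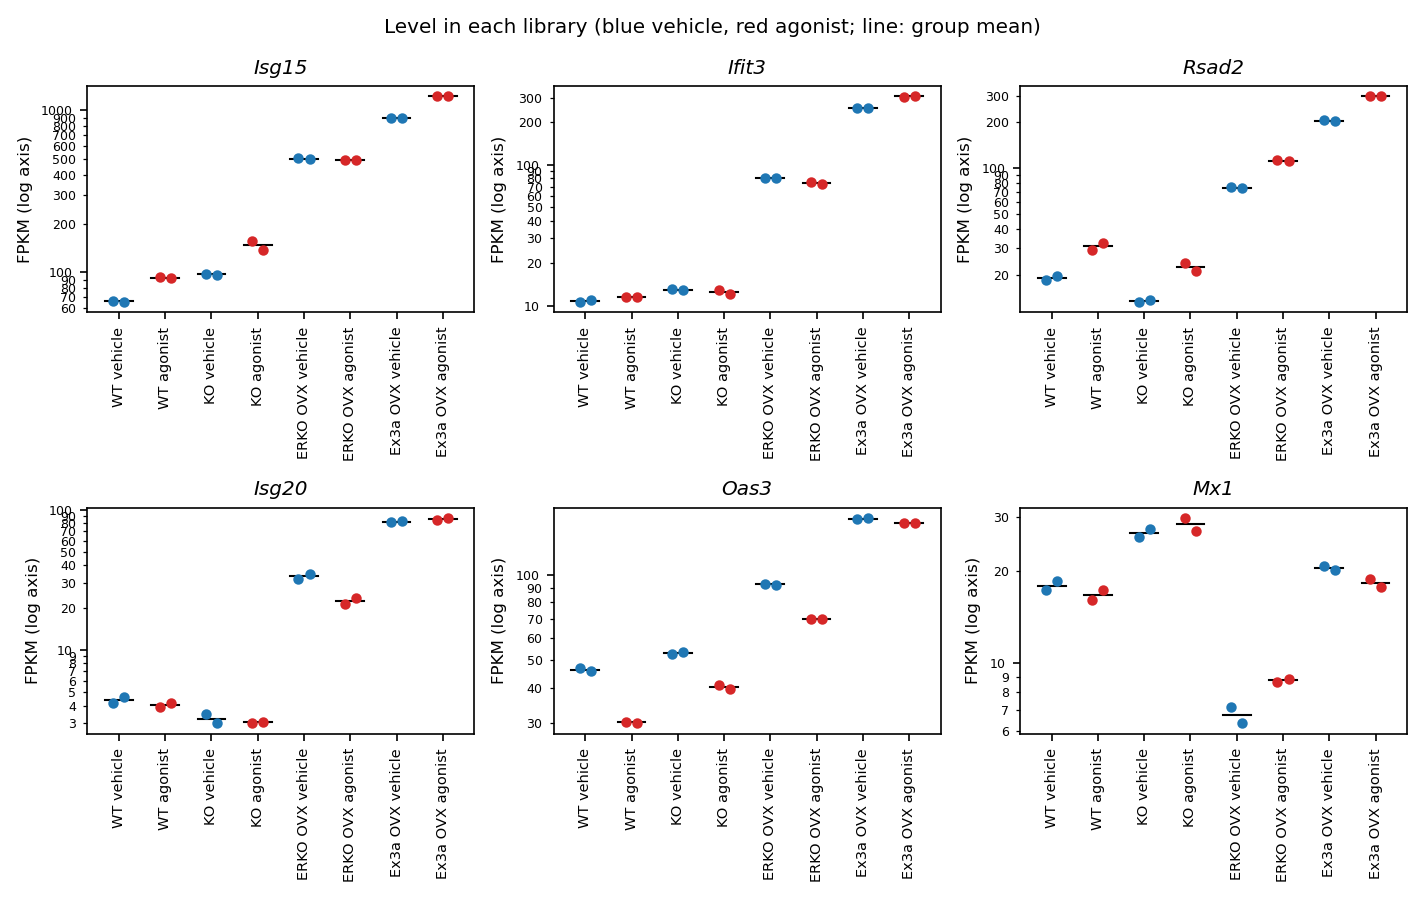
FPKM on a log axis in each of the 16 libraries (blue vehicle, red agonist) with the group mean as a line, for 6 genes. Isg15, Ifit3 and Isg20 step up from the unoperated arms to ERKO OVX and Ex3a OVX, Rsad2 also rises with agonist in every arm, Oas3 falls with agonist in the first 3 arms, and Mx1 is lowest in ERKO OVX.

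ERKO OVX and KO carry the same allele by the source labels and differ in surgery and pellet, and in whatever else separates the 2 sets of libraries. Under vehicle 29 of 40 genes were called higher in ERKO OVX and 7 lower, against 80.8% of all genes called (40.9% higher, 39.9% lower). With agonist 33 were called higher and 7 lower, against 78.6% (40.1% higher, 38.5% lower). The median change was 0.71 and 0.75, beside 0.0096 and 0.014 over all genes, and the FPKM ratio passed 2 for 16 genes in each treatment. The 2 comparisons share no library. The same families led as in Ex3a OVX against ERKO OVX, though the 2 comparisons share the ERKO OVX libraries and so are not independent.

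Isg20 measured 3.46 and 2.99 FPKM in KO vehicle and 32.2 and 34.7 in ERKO OVX vehicle, 10.4-fold more (log2 change 3.03, SE 0.071, adjusted p = 1.73e-10 by limma). Ifit3 measured 13.1 and 12.9 against 80.8 and 80.2 (log2 change 2.54, SE 0.040, adjusted p = 2.19e-11 by limma). Ifit1 measured 15.6 and 15.5 against 88.2 and 87.7 (log2 change 2.42, SE 0.052, adjusted p = 1.19e-10 by limma). No group overlapped. Isg15 and Rsad2 were higher by 2.36 and 2.39, and I830012O16Rik by 2.47. With agonist the changes were 2.53 for Isg20, 2.47 for Ifit3, 2.27 for Rsad2 and 1.91 for Ifit2.

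Some genes went the other way. Mx1 measured 25.8 and 27.3 FPKM in KO vehicle and 7.15 and 6.34 in ERKO OVX vehicle, 3.93-fold less (log2 change -1.83, SE 0.068, adjusted p = 3.61e-09 by limma). Slfn8 measured 22.7 and 23.2 against 8.62 and 8.44 (log2 change -1.33, SE 0.036, adjusted p = 4.85e-10 by limma). Epsti1 measured 93.3 and 92.0 with agonist in KO and 54.0 and 54.6 in ERKO OVX (log2 change -0.76, SE 0.036, adjusted p = 2.4e-08 by limma). Also lower under vehicle were Epsti1 (-0.35), Oas2 (-0.40), Trim25 (-0.16), Eif2ak2 (-0.11) and Parp14 (-0.075). The others that were lower with agonist were Eif2ak2 (-0.26), Sp100 (-0.19), Slfn5 (-0.16) and Oas2 (-0.12). Mx1 and Mx2, neighbours on chromosome 16, thus differed in direction, since Mx2 was higher by 0.51. Of the 22 tested genes of the interferon system, 8 were called higher and 10 lower under vehicle, beside 40.9% and 39.9% of all genes. Irf7 stood out at 80.5 and 81.4 against 410.1 and 410.3 (log2 change 2.33, SE 0.026, adjusted p = 3.89e-12 by limma), and Ifnb1 did not pass under vehicle (0.20, adjusted p = 0.056 by limma). All 9 neutrophil and granulocyte precursor markers tested were higher in ERKO OVX in both treatments, with sums of 111 to 124 FPKM in KO vehicle and 2384 to 2389 in ERKO OVX vehicle, and monocyte sums were 213 to 215 and 2759 to 2777. Of the 9, Elane, Mpo, Prtn3, Ltf and Ngp passed the filter only through ovariectomized libraries, which favoured a higher call beforehand. Macrophage sums were 617 to 627 and 1785 to 1790, with 5 of 9 called higher and 3 lower under vehicle, and mast cell and basophil sums 1.88 to 2.12 and 74.3 to 74.6, with 4 of 5 higher. All 3 T and NK cell markers tested (Cd3g, Gzma and Nkg7) were higher too. These 3, and Cpa3 of the mast cell and basophil list, also passed the filter only through ovariectomized libraries. Of 9 dendritic cell markers 4 were called higher and 3 lower under vehicle. H2-Aa, H2-Ab1 and Cd74 were among the higher ones, and Zbtb46 and Ccr7 among the lower ones. Their part in the result was not tested.

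KO against WT compares the receptor alleles in mice without surgery. Under vehicle 22 of 40 genes were called higher in KO and 11 lower, against 60.2% of all genes called (31.5% higher, 28.7% lower). With agonist 25 were called higher and 8 lower, against 54.8% (27.2% higher, 27.6% lower). The changes were small, with medians of 0.16 and 0.24 beside 0.0084 and -0.0029 over all genes, and no FPKM ratio passed 2 in either direction. In both treatments 22 genes were called higher and 7 lower, and the shares of all genes so called were not counted. All 4 KO libraries lay above all 4 WT libraries for 16 genes, against 17.6% of all genes tested, and below them for 4 (Ly6e, Isg20, Samd9l and Lgals3bp), against 17.4%.

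**Figure D4:**
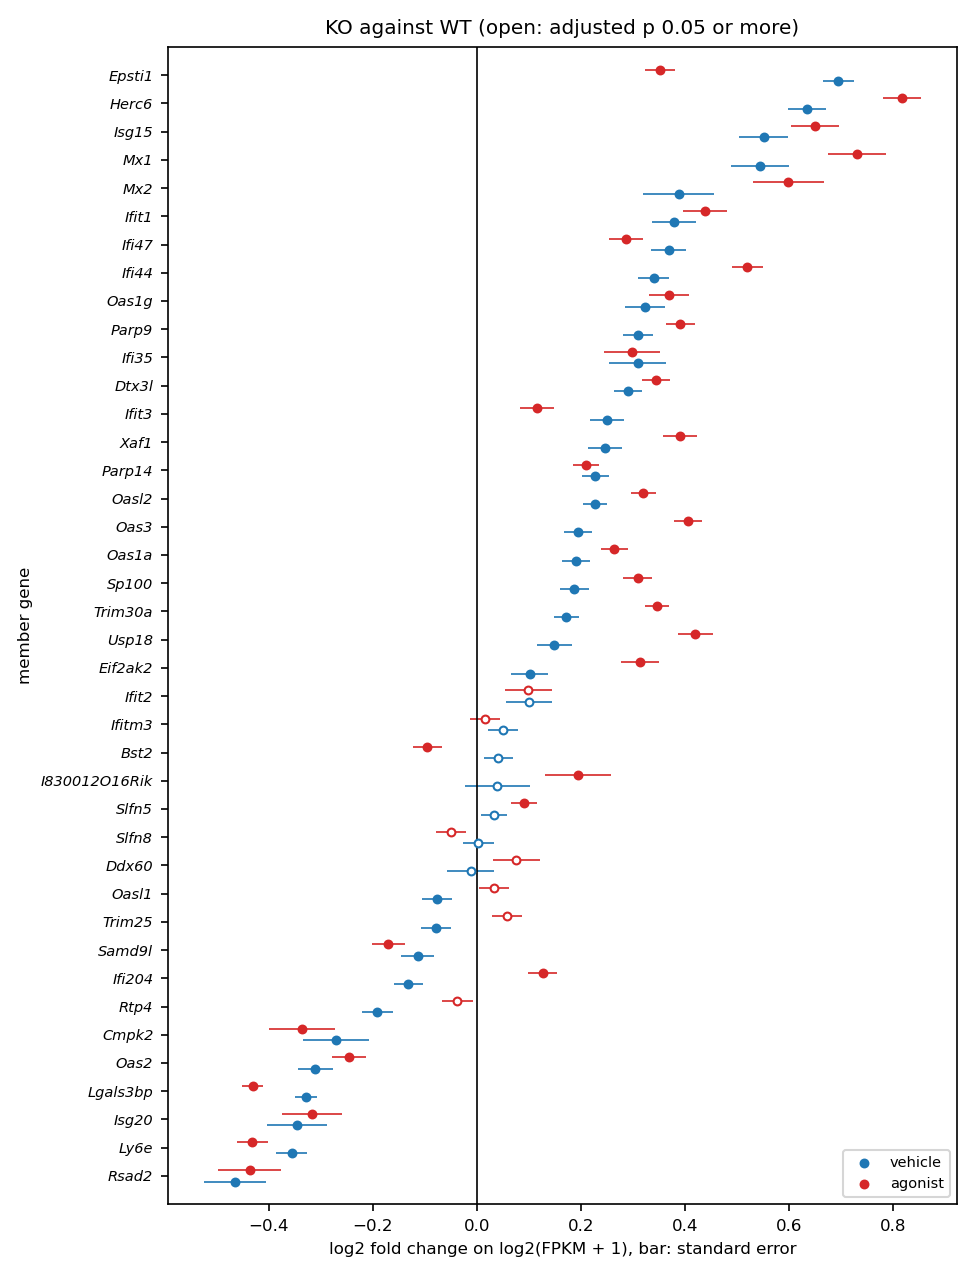
Points are the log2 change of KO against WT for each gene under vehicle (blue) and agonist (red), bars are SE, and open points have an adjusted p of 0.05 or more. Epsti1, Herc6, Isg15 and Mx1 lie at the high end, and Rsad2, Ly6e, Isg20 and Lgals3bp at the low end.

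Epsti1 measured 51.5 and 50.3 FPKM in WT vehicle and 83.6 and 82.5 in KO vehicle (log2 change 0.69, SE 0.029, adjusted p = 4.34e-08 by limma). Herc6 measured 15.1 and 14.9 against 24.1 and 23.6 (log2 change 0.63, SE 0.037, adjusted p = 3.57e-07 by limma). Isg15 measured 66.5 and 65.8 against 98.2 and 96.6 (log2 change 0.55, SE 0.047, adjusted p = 5.94e-06 by limma). The pairs did not overlap for any of the 3. Mx1 measured 17.3 and 18.5 against 25.8 and 27.3 (log2 change 0.54, SE 0.055, adjusted p = 1.75e-05 by limma), and Mx2 and Ifit1 were higher by 0.39 and 0.38. With agonist Herc6 was higher by 0.82, Mx1 by 0.73, Isg15 by 0.65, Mx2 by 0.60, Ifi44 by 0.52 and Ifit1 by 0.44. The PARP9-DTX3L group was called higher in all 3 of its genes in both treatments, with Parp9 at 0.31 under vehicle.

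Rsad2 was lower in KO, at 18.4 and 19.6 FPKM in WT vehicle against 13.3 and 13.7 in KO vehicle, 1.41-fold less (log2 change -0.46, SE 0.060, adjusted p = 0.00011 by limma). Its neighbour Cmpk2 had a log2 change of -0.27. Ly6e measured 404 and 399.9 against 310.4 and 317 (log2 change -0.36, SE 0.029, adjusted p = 3.92e-06 by limma). Lgals3bp measured 473 and 467 against 368 and 379 (log2 change -0.33, SE 0.021, adjusted p = 6.55e-07 by limma). Isg20 and Oas2 were also lower, at -0.35 and -0.31. With agonist the same 6 genes were called lower, at -0.44 for Rsad2, -0.43 for Ly6e, -0.43 for Lgals3bp, -0.34 for Cmpk2, -0.32 for Isg20 and -0.25 for Oas2.

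Across the 40 genes, the changes of KO against WT under vehicle and of Ex3a OVX against ERKO OVX under vehicle had a Pearson correlation of -0.24 (-0.16 across all genes tested), and with agonist of -0.14 (-0.032 across all genes). This is a description across genes, which are not independent replicates. KO against WT correlated with itself between treatments at 0.92 (0.91 across all genes), in libraries not shared. For Ex3a OVX against ERKO OVX the correlation was 0.89 (0.81 across all genes). In the interferon system 13 of 22 genes were called higher in KO and 6 lower under vehicle, beside 31.5% and 28.7% of all genes. Socs1 measured 22.6 and 24.9 FPKM in WT vehicle and 11.6 and 11.3 in KO vehicle (log2 change -0.99, SE 0.046, adjusted p = 7.73e-08 by limma). All 9 macrophage markers tested were lower in KO in both treatments, with sums of 1435 to 1478 FPKM in WT vehicle and 617 to 627 in KO vehicle, and C1qa at 115 and 110.3 against 3.09 and 3.45. Their part in the differences was not tested. C1qa, C1qb and C1qc were thus high in WT and Ex3a OVX and low in KO and ERKO OVX.

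In no arm did most of the genes rise with agonist. In WT 13 of 40 were called higher with agonist and 17 lower, against 57.9% of all genes called (30.8% higher, 27.0% lower). In KO 14 were higher and 12 lower, against 51.2% (25.9% higher, 25.3% lower). ERKO OVX had 9 higher and 10 lower, against 37.5% (18.3% higher, 19.2% lower), and Ex3a OVX had 15 higher and 5 lower, against 37.3% (19.1% higher, 18.2% lower). The median changes were -0.065, 0.016, -0.029 and 0.077 in that order, beside 0.020, 0.0072, 0.0038 and 0.0075 over all genes, and no FPKM ratio passed 2 in either direction. The ERKO OVX count of 19 became 29 when each surgery state was fitted alone, a fit added after seeing the data. In that fit the ovariectomized libraries entered singly, and its share of calls over all genes is not given here. Only 1 time was sampled, so earlier changes were not measured.

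**Figure D5:**
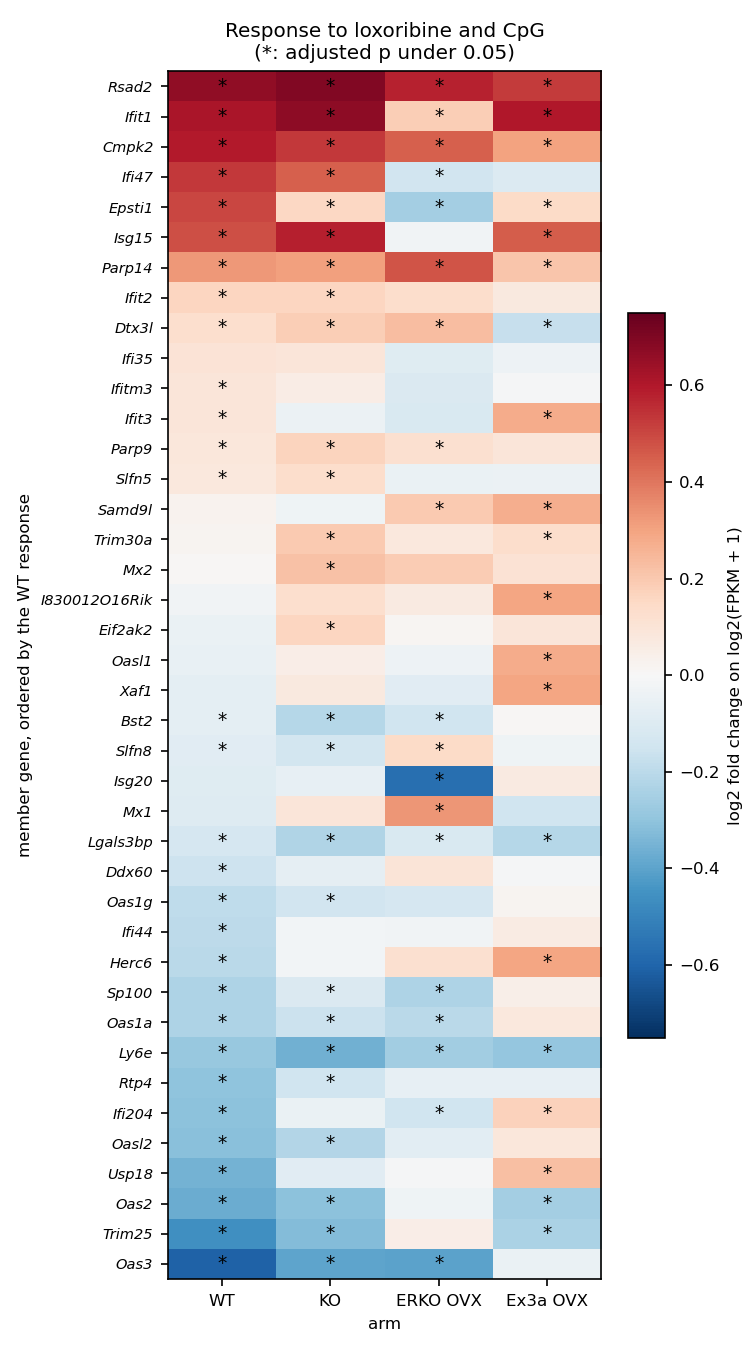
Colour gives the log2 change with agonist in each of the 4 arms (columns) for the 40 genes (rows, ordered by the WT response), red higher and blue lower, with * where the adjusted p is under 0.05. Rsad2, Ifit1, Cmpk2 and Parp14 are red with * in all 4 arms, Ly6e and Lgals3bp are blue with * in all 4, and Oas3 is blue with * in 3.

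Of the 40 genes, 4 rose in every arm, namely Rsad2, Ifit1, Cmpk2 and Parp14. The share of all genes called higher in every arm was not counted. Rsad2 measured 18.4 and 19.6 FPKM in WT vehicle and 29.2 and 32.2 with agonist (log2 change 0.66, SE 0.060, adjusted p = 1.03e-05 by limma). In KO it went from 13.3 and 13.7 to 23.8 and 21.0 (log2 change 0.69, SE 0.060, adjusted p = 9.49e-06 by limma). In the ovariectomized arms, whose starting level was several times higher, it rose by 0.57 in ERKO OVX and 0.52 in Ex3a OVX. Ifit1 went from 11.8 and 11.7 to 18.9 and 18.0 in WT (log2 change 0.61, SE 0.042, adjusted p = 1.16e-06 by limma), and rose by 0.67 in KO, 0.18 in ERKO OVX and 0.60 in Ex3a OVX. Cmpk2 rose by 0.59, 0.53, 0.45 and 0.30 in the arms in the same order, and Parp14 by 0.32, 0.30, 0.47 and 0.21. In the same family Ifit3 changed by 0.088 in WT and whose KO value of -0.046 did not pass (adjusted p = 0.27 by limma). That difference between genes was not itself tested.

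Isg15 rose in 3 arms. It went from 66.5 and 65.8 FPKM to 93.1 and 92.7 in WT (log2 change 0.48, SE 0.047, adjusted p = 1.55e-05 by limma) and from 98.2 and 96.6 to 156 and 137 in KO (log2 change 0.58, SE 0.047, adjusted p = 5.3e-06 by limma). In Ex3a OVX it rose by 0.45, while ERKO OVX gave -0.023 (SE 0.066, adjusted p = 0.81 by limma). Ifi47 rose by 0.53 in WT and 0.45 in KO and had values of -0.14 and -0.11 in ERKO OVX and Ex3a OVX, of which the first was called lower. Epsti1 rose by 0.50 in WT, 0.16 in KO and 0.14 in Ex3a OVX and fell in ERKO OVX (-0.25).

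The OAS family fell in the unoperated arms, with 5 of 6 genes called lower in WT and in KO and 0 higher. Most macrophage markers fell with agonist too, with 8 of 9 called lower in WT (median -0.30) and 7 of 9 in KO (-0.37). In each ovariectomized arm 6 of 9 were called lower. Called higher were 1 of 9 in WT, KO and Ex3a OVX and 2 in ERKO OVX. The macrophage marker Emr1 rose in every arm, as from 64.6 and 64.2 FPKM to 154 and 146 in WT. Macrophage sums were 1435 to 1478 FPKM in WT vehicle and 1272 to 1317 in WT agonist. In Ex3a OVX they were 3003 to 3004 with vehicle and 3324 to 3369 with agonist. The part of these cells in the responses was not tested. Oas3 went from 46.8 and 45.8 FPKM to 30.3 and 29.9 in WT (log2 change -0.60, SE 0.027, adjusted p = 4.96e-08 by limma) and from 52.7 and 53.5 to 40.9 and 39.5 in KO (log2 change -0.39, SE 0.027, adjusted p = 1.35e-06 by limma). It also fell in ERKO OVX (-0.40), and its Ex3a OVX value of -0.051 did not pass (adjusted p = 0.32 by limma). In WT the other members were Oas2 at -0.37, Oasl2 at -0.31, Oas1a at -0.23 and Oas1g at -0.19, and Oasl1 at -0.058 did not pass. In Ex3a OVX 1 OAS gene was higher, Oasl1 (0.28), and 1 lower, Oas2 (-0.26). Trim25 went from 69.8 and 69.6 to 49.8 and 51.0 in WT (log2 change -0.46, SE 0.028, adjusted p = 4.97e-07 by limma). Usp18 went from 68.2 and 69.8 to 53.5 and 53.8 in WT (log2 change -0.36, SE 0.034, adjusted p = 1.1e-05 by limma). Ly6e fell in all 4 arms, from 404 and 399.9 to 333 and 325 in WT (log2 change -0.29, SE 0.029, adjusted p = 1.96e-05 by limma), and Lgals3bp changed by -0.12, -0.23, -0.12 and -0.22 in the arms as ordered above. Bst2 fell in WT (-0.074), KO (-0.21) and ERKO OVX (-0.15), and Ifitm3 rose slightly in WT alone among the calls (0.089). Isg20 fell in ERKO OVX (-0.57), and its values in the other arms did not pass.

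Genes of the interferon system also moved in both directions with agonist. Socs1 went from 22.6 and 24.9 FPKM to 39.4 and 40.2 in WT (log2 change 0.72, SE 0.046, adjusted p = 5.99e-07 by limma). Irf7 fell in WT, from 86.5 and 86.0 to 72.9 and 74.0 (log2 change -0.23, SE 0.021, adjusted p = 9.96e-06 by limma). Tlr9 fell there too (log2 change -0.46, SE 0.035, adjusted p = 2.09e-06 by limma). In all, 9 of 22 tested genes of the interferon system were called higher and 8 lower in WT, beside 30.8% and 27.0% of all genes.

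The response differed between KO and WT for 7 of 40 genes, 6 with a higher value in KO and 1 with a lower one, against 6.98% of all genes (2.31% higher, 4.67% lower). Usp18, which fell in WT, measured 75.7 and 77.5 FPKM in KO vehicle and 74.8 and 69.5 with agonist (difference of the responses 0.27, SE 0.048, adjusted p = 0.0094 by limma). Ifi204 went from 42.6 and 43.6 to 35.1 and 34.2 in WT and from 39.6 and 38.9 to 38.4 and 37.4 in KO (difference 0.26, SE 0.039, adjusted p = 0.0043 by limma). Epsti1 rose less in KO than in WT (difference -0.34, SE 0.041, adjusted p = 0.0014 by limma). The other genes with a higher response were Oas3 (0.21), Eif2ak2 (0.21), Ifi44 (0.18) and Trim30a (0.17). This count moved most when libraries were left out. It was 3 without the first WT vehicle library, 4 without the second, 4 without the second KO vehicle library and 14 when all 16 libraries entered singly. The shares of all genes called in those fits are not given here. Per the labels, 1 read file of the first WT vehicle library and of the second KO vehicle library was corrupted, and its part in this was not tested. Across the 40 genes, the WT and KO responses had a Pearson correlation of 0.91 (0.92 across all genes), and the ERKO OVX and Ex3a OVX responses 0.34 (0.32 across all genes).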

How the data were processed

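RNA-seq of bone marrow-derived dendritic cells was used in 16 libraries (2 per group, 8 groups). Values are FPKM as deposited by the authors. Listed in the submitters' processing notes are the tools cutadapt, STAR, HTSeq, FastQC and DESeq2 and the mm10 build, all without a version. Which program computed the FPKM is not stated there. The unit scales each gene by its length and each library by its total, which hides fragment counts and lets a few abundant genes press down the rest. Per the labels, 1 read file was corrupted for each of 4 libraries (WT vehicle 1, KO vehicle 2, KO agonist 2 and ERKO OVX agonist 2) and all read files for WT agonist 1. How FPKM was made for them is not stated.

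Of 24001 rows, 1240 small structural and micro RNA rows were left out and 27 symbols turned into dates were not named. Lone zeros taken as missing (6, in 5 genes, 0 of them among the 40) were left out. Genes with at least 1 FPKM in 2 libraries were tested, 11346 in all, and 11345 where KO agonist entered. The limma trend method (limma 3.58.1, R 4.3.3, robust) was fitted to log2(FPKM + 1), where a fold change understates that of low genes, with 1 coefficient per group, 12 samples and 4 residual degrees of freedom. Each ovariectomized pair was averaged. P-values were adjusted within each of 12 comparisons, with a threshold of 0.05. Pairing of replicate numbers was checked by the correlation of deviations from group means, which ran from -0.11 to 0.11, so the numbers were not taken to pair samples. Alternatives were other pseudocounts, no filter, rescaled FPKM, single libraries, a replicate block, leaving out each library and, chosen after seeing the data, each surgery state alone and a crossed pairing of KO and WT agonist libraries. Promoters and positions are RefSeq's on GRCm38.p6, and transcript words are from GENCODE M21.

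The 40 genes, the role groups, the lists and the motifs were chosen with earlier results of these data known. Levels are printed for the most abundant gene of each role group and for up to 6 genes called higher and 6 lower per comparison, those with the largest changes. Other genes were added to complete a family. Genes outside the 40 come from the interferon system list, the marker lists and Esr1.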

Additional observations from a re-analysis of the deposited data

Results flagged for a closer look

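A test of the difference itself, the interaction term of the limma fit, with an adjusted p under 0.05, found an agonist response that differed between arms for these genes. Values are differences of log2 responses. Between KO and WT they were 0.27 for Usp18, 0.26 for Ifi204, 0.21 for Oas3, 0.21 for Eif2ak2, 0.18 for Ifi44, 0.17 for Trim30a and -0.34 for Epsti1. Between Ex3a OVX and ERKO OVX, the higher responses in Ex3a OVX were 0.63 for Isg20, 0.48 for Isg15, 0.42 for Ifit1, 0.40 for Epsti1, 0.39 for Ifit3, 0.38 for Xaf1, 0.35 for Oas3, 0.32 for Ifi204, 0.32 for Oasl1, 0.28 for Oas1a, 0.28 for Sp100, 0.23 for Usp18 and 0.17 for Oasl2. The lower ones were -0.49 for Mx1, -0.40 for Dtx3l, -0.29 for Trim25, -0.26 for Parp14 and -0.23 for Oas2. Usp18, Oas3, Ifi204 and Epsti1 were in both sets, with Epsti1 in opposite directions. By the genotype labels the vehicle and agonist groups of KO and of ERKO OVX carry different alleles, so by those labels each difference also compares alleles.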

How the results depend on the processing

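Counts of called genes among the 40 stayed within 1.5 times the reported count in all alternatives run but these, and no direction reversed. The agonist response in ERKO OVX had 29 calls when each surgery state was fitted alone (added after seeing the data), against 19. In that fit the ovariectomized libraries entered singly. The response difference between KO and WT had 4 calls with no filter and 14 with all 16 libraries entered singly, against 7, and between 3 (without the first WT vehicle library) and 8 (without the second KO agonist library) when 1 library was left out. With a replicate block, the calls of KO against WT numbered 32 under vehicle and 33 with agonist, those of Ex3a OVX against ERKO OVX 39 and 37, those of ERKO OVX against KO 34 and 40, and the KO minus WT difference 6. The agonist responses under the block had 29 calls in WT, 26 in KO, 17 in ERKO OVX and 20 in Ex3a OVX, and the difference between the ovariectomized arms 19. A crossed pairing of KO and WT agonist libraries gave 34. The shares of all genes called in these alternatives are not given here, so the counts show only how far they moved. The cause of these shifts was not tested. Values from the ovariectomized arms rest on paired libraries counted as 1 sample, so no spread within those groups enters the tests. Fragment counts are unknown, which leaves the counting error of low genes such as Ifnb1 without a value.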
